A study of Homo sapiens with 6 samples.

Results

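The genes described are the receptor chains for interleukin-4 and interleukin-13 and the kinases and transcription factors that carry their signal, namely IL4R, IL13RA1, IL13RA2, JAK1, JAK2, TYK2, STAT6 and STAT3. They were chosen by gene symbol, and these 8 were found among 35268 named genes. mRNA was sequenced from Rh30 cells, an established line that carries the PAX3-FOXO1 fusion and comes from fusion-positive rhabdomyosarcoma (FP-RMS), a childhood soft tissue cancer. One group of 3 libraries came from cells given YK-4-279, a small molecule dissolved in DMSO, at 1 µM for 24 hours, and the other group of 3 came from cells given the DMSO vehicle for the same time. All 6 libraries shared the same line and the same serum-containing medium, and no cytokine was named among the treatments. Nothing in the sources says that the 3 libraries of a group came from separately grown cultures, so p-values measure the spread between these libraries, which may be partly technical. The comparison asks how the drug changes expression of these genes, IL4R being one that the study follows as a PAX3-FOXO1-regulated gene.

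Interleukin-4 binds the IL4R chain, which then pairs either with IL2RG, mostly on blood cells, or with IL13RA1 on other cells, and the second pair also receives interleukin-13. The paired chains bring together JAK kinases, which phosphorylate the receptor tails and the transcription factor STAT6, and STAT6 then enters the nucleus and binds DNA as a dimer. STAT3 is the main factor downstream of the related receptors that share the gp130 chain, and IL4R has been studied as a growth and metastasis gene in rhabdomyosarcoma.

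Depth, as reads on named genes, was 16724650, 20771226 and 24677433 for DMSO replicates 1, 2 and 3 and 23230675, 18752655 and 19876724 for the YK-4-279 replicates. Values are normalized counts, that is, reads divided by a factor of the library. Of the 6 libraries, DMSO replicate 1 was least like the rest. Its correlation across genes with the other libraries averaged 0.989, and no other library averaged under 0.992. It differed from DMSO replicates 2 and 3 by GC content. The median gene of the fifth with the lowest GC content was higher in it by 0.21 on the log2 scale, and the median gene of the fifth with the highest GC content differed by -0.26. Across genes, which are not independent replicates, Spearman's rho between GC content and this difference was -0.62. Values without this library are therefore given beside several results.

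The receptor and JAK-STAT genes followed this direction. JAK2, IL13RA1 and JAK1, whose canonical transcripts have a GC content of 36.7%, 42.7% and 46.4%, were higher in DMSO replicate 1 than in the mean of the other DMSO libraries, by 0.17, 0.18 and 0.29 on the log2 scale. STAT3, at 50.0% GC, differed by -0.01. STAT6, IL4R and TYK2, at 56.1%, 57.7% and 61.4% GC, differed by -0.28, -0.25 and -0.49. The spread within the DMSO group was therefore mostly that of a single library for several of these genes.

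**Figure D1:**
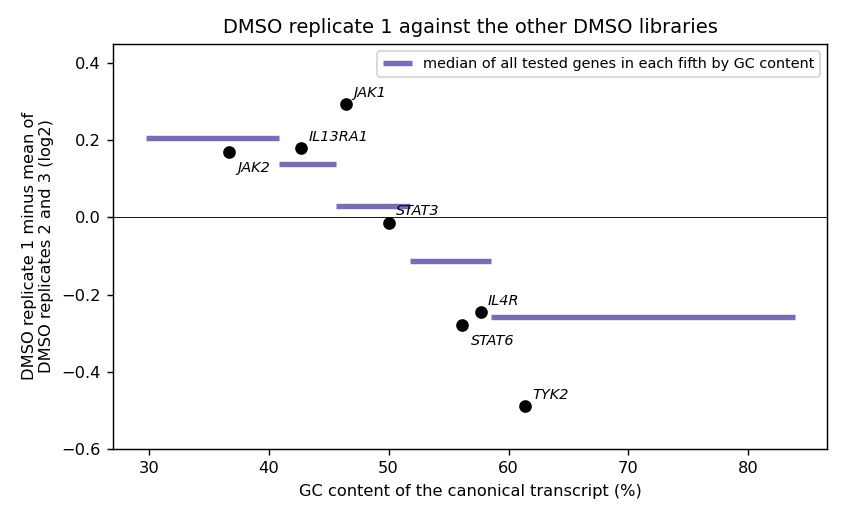
Difference between DMSO replicate 1 and the mean of DMSO replicates 2 and 3 (log2 of normalized count + 1) against the GC content of the canonical transcript in percent. Points are the 7 tested genes and bars are the medians of all tested genes in 5 equal groups by GC content, which run from 0.21 to -0.26.

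The label of the cells was checked against marker genes. All 8 muscle and rhabdomyosarcoma markers were detected, and the muscle determination factor MYOD1 was the most abundant, with a mean of 36993 normalized counts. The summed muscle markers were 87622, 102398 and 99063 normalized counts with DMSO and 98735, 97979 and 93741 with YK-4-279, which overlapped. By limma 0 of the 8 were called, where 3.41% of the 13930 genes tested were called, and edgeR and DESeq2 also called 0. At an unadjusted p under 0.05 limma gave 2 higher and 1 lower, where 7.69% and 11.0% of all tested genes were. Of these genes the differentiation factor MYOG, the filament gene DES and the fusion partner FOXO1, named after their values were seen, had groups that did not overlap, where 10.9% of all tested genes were higher and 15.1% lower in this way. MYOG (0.23, limma adjusted p = 0.224) and DES (0.14, limma adjusted p = 0.255) were higher with the drug, and FOXO1 was lower (-0.25, limma adjusted p = 0.128). MYOG passed with all 6 libraries after trends on GC content and length had been removed (0.19, limma adjusted p = 0.0357, range over the alternatives 0.0357 to 0.481). In the same fit FOXO1 (-0.22, limma adjusted p = 0.0242) and the marker FGFR4 (-0.17, limma adjusted p = 0.0158) passed as lower. Without DMSO replicate 1, MYOG was 0.08 and DES 0.08, neither passing, and 3 markers were called lower, where 8.46% of all tested genes were. These were FOXO1 (-0.14, limma adjusted p = 0.0471, range over the alternatives 0.0242 to 0.345), FGFR4 (-0.17, limma adjusted p = 0.00285, range over the alternatives 0.00285 to 0.614) and CDH15 (-0.14, limma adjusted p = 0.0106, range over the alternatives 0.0106 to 0.979). In the main test of all 6 libraries FGFR4 was -0.12 (limma adjusted p = 0.281) and CDH15 was -0.03 (limma adjusted p = 0.898). FOXO1 also passed without DMSO replicate 2 (-0.31, limma adjusted p = 0.0485), and the sign of CDH15 was not stable across the scaling alternatives. Of 6 blood cell markers, 5 had a mean under 10, and the most abundant, CD14, had 13.3. The summed blood markers were 5.04, 16.0 and 10.9 normalized counts in DMSO replicates 1, 2 and 3 and 31.7, 33.7 and 21.0 with YK-4-279, so these groups did not overlap, at a level of at most 27 reads per gene in a library. CD14 was higher in all drug-treated libraries (log2 fold change 1.20, limma adjusted p = 0.140), and its log2 fold change was 0.80 without DMSO replicate 1 (limma adjusted p = 0.185). The pan-leukocyte gene PTPRC was at or near 0 in every library.

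Endothelial markers summed to 318, 281 and 235 normalized counts with DMSO and 221, 227 and 252 with YK-4-279, with TEK the most abundant at a mean of 204. The groups did not overlap for TEK, with 272, 228 and 195 normalized counts with DMSO and 165, 175 and 188 with the drug (log2 fold change -0.38, limma adjusted p = 0.128), and KDR, chosen after its values were seen, also had groups that did not overlap, with higher values with the drug (0.71, limma adjusted p = 0.332). Epithelial markers summed to 66.8, 53.0 and 50.1 with DMSO and to 90.0, 59.8 and 72.0 with YK-4-279, with EPCAM the most abundant at 64.6. The endothelial and epithelial sums overlapped between the groups. Fibroblast markers summed to 1043, 1057 and 964 with DMSO and to 1298, 1282 and 1208 with YK-4-279, which did not overlap. Their most abundant gene, the collagen chain COL1A1, was higher with the drug by 0.34 on the log2 scale (limma, Benjamini-Hochberg adjusted p = 0.0375, range over the alternatives 0.00161 to 0.213). This call was lost without DMSO replicate 3 (0.35, limma adjusted p = 0.0927) and without YK-4-279 replicate 1, 2 or 3 (0.33, 0.32 and 0.37, limma adjusted p = 0.213, 0.190 and 0.127). With all libraries it was lost in eBayes without trend (limma adjusted p = 0.145) and with the replicate number as a block (limma adjusted p = 0.0812). PDGFRA, a growth factor receptor of the list chosen after its values were seen, overlapped between the groups (0.27, limma adjusted p = 0.2497) and passed without DMSO replicate 1 (0.42, limma adjusted p = 2.79e-04, range over the alternatives 2.79e-04 to 0.563). It also passed with all 6 libraries after trends on GC content and length had been removed (0.32, limma adjusted p = 0.0349). Without DMSO replicate 3 it was 0.17 (limma adjusted p = 0.515). DCN, which encodes the fibroblast protein decorin, had at most 1.26 normalized counts in any library. The part of these marker levels in the results was not tested. In bulk RNA, fewer cells expressing a gene and less RNA per cell cannot be told apart.

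IL4R, the chain that binds interleukin-4, was abundant, and did not pass the test of its normalized counts when all libraries were used. It lies on the plus strand of chromosome 16, at chr16:27313668-27364778 on hg38. DMSO replicates 1, 2 and 3 had 2522, 3039.7 and 2943 normalized counts, and the YK-4-279 replicates had 2574, 2453 and 2384. DMSO replicates 2 and 3 were above every drug-treated library, and DMSO replicate 1 lay among the drug-treated libraries, so the groups overlapped. The fitted log2 fold change of IL4R was -0.19 (standard error 0.07, 95% interval -0.35 to -0.04, limma, Benjamini-Hochberg adjusted p = 0.173). Without DMSO replicate 1 it was -0.28 (standard error 0.04, limma adjusted p = 8.73e-06), and with all 6 libraries it was -0.22 after trends on GC content and transcript length had been removed (limma adjusted p = 0.00190). Over all alternatives the adjusted p ran from 8.73e-06 to 0.446. The study also measured IL4R by qRT-PCR, apart from these libraries. It reported lower expression with YK-4-279, depending on dose, in this line and in another FP-RMS line. An annotated noncoding RNA overlaps the 5′ end of IL4R. Whether reads were counted by strand is not given in the sources used here, and reads of overlapping genes cannot be told apart without it.

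IL13RA1, the partner that binds interleukin-13 in the receptor of non-blood cells, did not pass the test. Its gene is on the plus strand at chrX:118727133-118794535. It had 1566, 1369 and 1397 normalized counts in the DMSO replicates and 1378, 1459 and 1333 in the YK-4-279 replicates. The highest value was that of DMSO replicate 1, and the remaining libraries were interleaved. The log2 fold change was -0.05 (standard error 0.07, 95% interval -0.21 to 0.10, limma adjusted p = 0.731), and it was 0.0064 without DMSO replicate 1 (limma adjusted p = 0.959, range over the alternatives 0.536 to 0.959). IL13RA2, a receptor for interleukin-13 with a short tail that acts largely as a decoy, lies on the minus strand at chrX:115003975-115019977. It had 1 read in all, in YK-4-279 replicate 3, and 0 in the other libraries. This is under the floor of 3 reads that a count of 0 allows, so no fold is given and the gene was not tested. Floors and intervals of this kind cover counting error only.

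IL4R had 1.61, 2.22 and 2.11 normalized counts for each IL13RA1 count in the DMSO replicates and 1.87, 1.68 and 1.79 in the YK-4-279 replicates. These ratios overlapped between the groups. The chain that pairs with IL4R on blood cells, IL2RG, had at most 4.0 normalized counts in a library, and JAK3, the kinase that IL2RG carries, had at most 5.0. Transcripts of IL4R and IL13RA1 were therefore measured in these cells at levels that allow a comparison, and those of IL2RG, JAK3 and IL13RA2 were not.

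**Figure D2:**
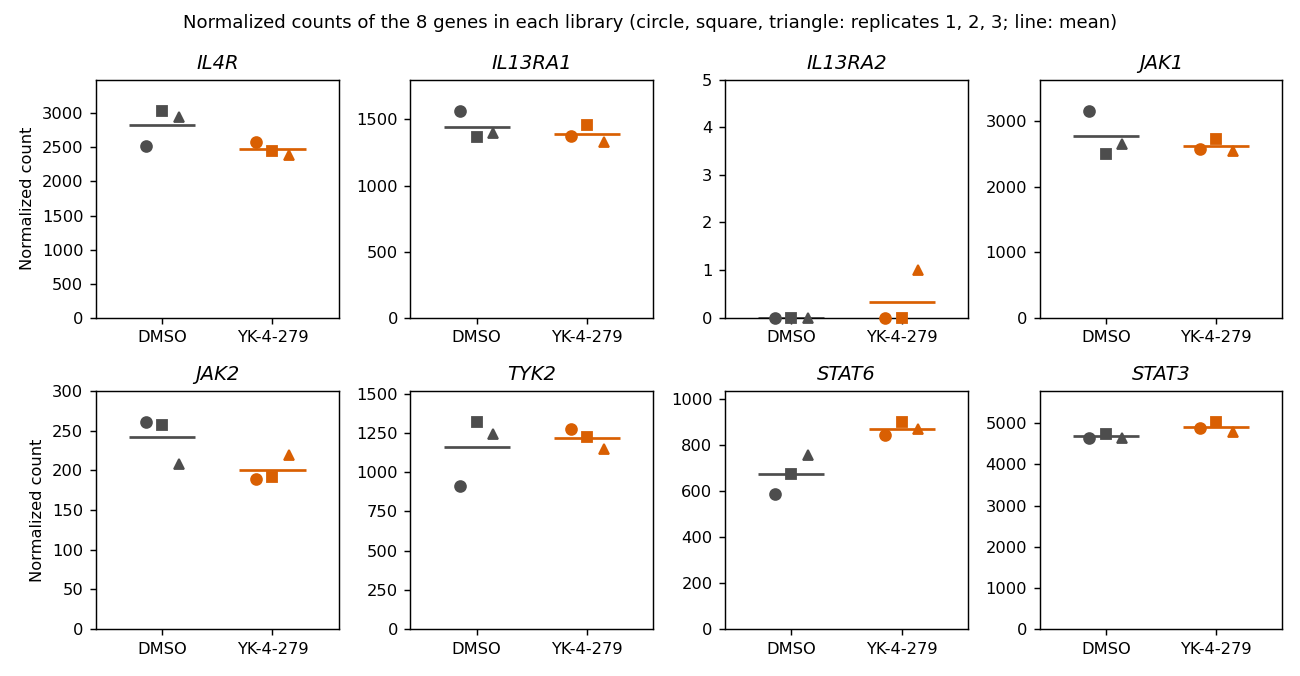
Normalized counts of the 8 genes in each library, with DMSO in grey and YK-4-279 in orange. Circles, squares and triangles are replicates 1, 2 and 3 and lines are group means. STAT6 and STAT3 are the genes whose groups do not overlap.

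Of the kinases, JAK1, which binds the tails of both IL4R and the gp130 chain, was the most abundant. Its gene is on the minus strand at chr1:64833223-65067754. The DMSO replicates had 3156, 2503 and 2646 normalized counts and the YK-4-279 replicates had 2578, 2729.7 and 2548. Apart from DMSO replicate 1, which was the highest, all libraries lay within the same range. On the log2 scale JAK1 differed by -0.07 (standard error 0.08, limma adjusted p = 0.659), which was 0.024 without DMSO replicate 1 (limma adjusted p = 0.794, range over the alternatives 0.304 to 0.888). RAVER2, which overlaps the end of JAK1 on the opposite strand and was looked at for that reason, had 1145, 1162 and 1062 normalized counts with DMSO and 920.3, 964 and 948 with the drug. All drug-treated libraries were lower for RAVER2, and the log2 fold change of -0.25 (limma adjusted p = 0.0644) passed without DMSO replicate 1 (-0.23, limma adjusted p = 0.00284, range over the alternatives 0.00284 to 0.2996). RAVER2 ends at chr1:64833232, so the 2 gene spans share few bases. The part of RAVER2 reads in the JAK1 counts was not tested.

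TYK2, which is carried by IL13RA1 and by several cytokine receptors, lies on the minus strand at chr19:10350533-10380608. It had 913, 1319 and 1246 normalized counts with DMSO and 1278, 1222 and 1148 with YK-4-279. DMSO replicate 1 was far below the other 5 libraries, which overlapped. For TYK2 the log2 fold change was 0.09 (standard error 0.11, limma adjusted p = 0.725), and its sign turned to -0.08 without that library (limma adjusted p = 0.396, range over the alternatives 0.312 to 0.921).

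JAK2, the kinase of the growth hormone and erythropoietin receptors among others, lies on the plus strand at chr9:4984390-5129948. It was the least abundant kinase of the 3 tested, with 261.0, 258 and 209 normalized counts with DMSO and 189, 191 and 220.1 with YK-4-279. DMSO replicate 3 lay among the drug-treated libraries, so the groups overlapped. The log2 fold change was -0.27 (standard error 0.12, 95% interval -0.53 to -0.01, limma adjusted p = 0.246), and it did not pass under any alternative, with adjusted p-values from 0.145 to 0.547. At 176 to 258 reads per library, JAK2 was counted less precisely than the other tested genes. INSL6, which overlaps JAK2, had at most 5.0 normalized counts.

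JAK1 made up 72.9%, 61.3% and 64.5% of the summed normalized counts of JAK1, JAK2, JAK3 and TYK2 in the DMSO replicates and 63.7%, 65.8% and 65.0% in the YK-4-279 replicates. These shares overlapped, and the outlying value was again that of DMSO replicate 1.

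STAT6, the transcription factor activated by IL4R, rose with drug treatment. It was the single gene of the 8 called in the test of normalized counts from all 6 libraries, in which no trend was removed. Its gene lies on the minus strand at chr12:57095408-57132139. The DMSO replicates had 588, 672 and 756 normalized counts, and the YK-4-279 replicates had 842, 899 and 868. All 3 drug-treated libraries were above all 3 DMSO libraries, and the spread was larger with DMSO (SD 84.0) than with the drug (SD 28.2, n = 3 each). The log2 fold change was 0.38 (standard error 0.09, 95% interval 0.19 to 0.57, limma adjusted p = 0.0372), an estimated 1.30-fold rise. Without DMSO replicate 1 it was 0.29 (limma adjusted p = 9.20e-04). Without YK-4-279 replicate 1, 2 or 3 the limma adjusted p was 0.165, 0.191 or 0.156, with log2 fold changes of 0.40, 0.36 and 0.38, so the call was lost without any one drug-treated library while the size of the difference was similar. It was also lost with all 6 libraries under quantile normalization (0.40, limma adjusted p = 0.0511) and in eBayes without trend (limma adjusted p = 0.174). The same held with the replicate number as a block (limma adjusted p = 0.0629). The limma adjusted p ran from 9.20e-04 to 0.191 over the alternatives.

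The 3′ end of STAT6 overlaps NAB2, a corepressor gene on the opposite strand, which was looked at for that reason. NAB2 had 2233, 2872 and 2738 normalized counts with DMSO and 2921, 2960.0 and 2746 with YK-4-279, which overlapped, and its log2 fold change was 0.15 (limma adjusted p = 0.375). Without DMSO replicate 1 it was 0.04 (limma adjusted p = 0.673). LRP1 overlaps the other end of STAT6, and its log2 fold change of -0.02 (limma adjusted p = 0.868) was not stable in sign across the scaling alternatives. NAB2 ends at chr12:57095476 and LRP1 starts at chr12:57128483. The part of reads from these neighbours in the STAT6 counts was not tested.

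STAT3, the factor downstream of gp130 receptors, lies on the minus strand at chr17:42313324-42388540. It had 4651, 4743 and 4645 normalized counts with DMSO and 4893, 5029 and 4786 with YK-4-279. The drug-treated libraries were all above the DMSO libraries, but by little. STAT3 differed by 0.07 on the log2 scale (standard error 0.05, 95% interval -0.05 to 0.18, limma adjusted p = 0.536), and it did not pass under any alternative.

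Of the 7 tested genes, 1 was called higher and 0 were called lower by limma, where 3.41% of the 13930 tested genes were called, 1.26% higher and 2.15% lower. At an unadjusted p under 0.05 limma gave 1 higher and 2 lower, the lower ones being IL4R and JAK2, where 7.69% of all tested genes were higher and 11.0% lower at that p. At an adjusted p under 0.05 edgeR and DESeq2 each called 1, where they called 3.34% and 4.47% of all tested genes in either direction. The groups did not overlap for 2 of the 7, both higher, where 26.0% of all tested genes did not overlap in either direction, 10.9% higher and 15.1% lower. These counts are of few genes and do not describe the set. Without DMSO replicate 1 the calls were IL4R lower and STAT6 higher, where 4.62% of all tested genes were called higher and 8.46% lower.

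**Figure D3:**
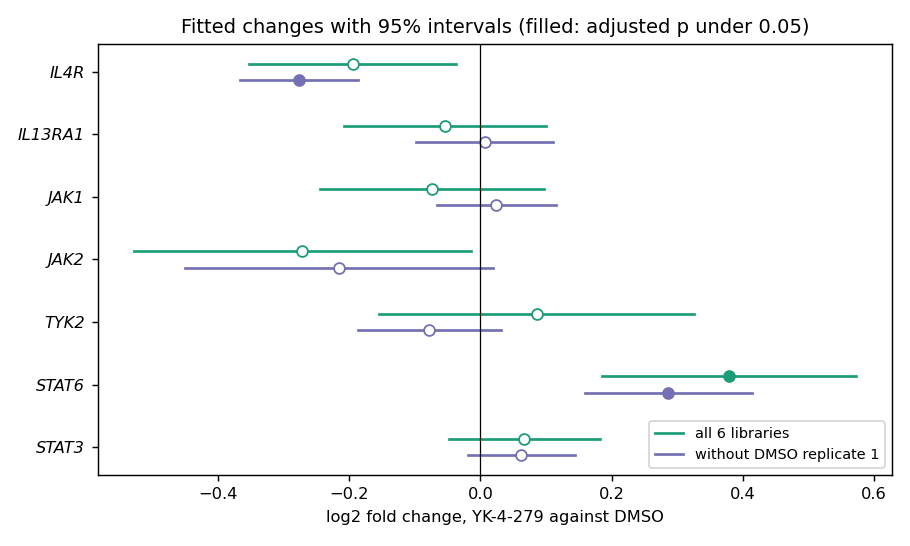
Log2 fold changes of the 7 tested genes, YK-4-279 against DMSO, with 95% intervals from limma, for all 6 libraries in green and without DMSO replicate 1 in purple. Filled points have an adjusted p under 0.05. STAT6 is filled in both fits at 0.38 and 0.29, and IL4R is filled without DMSO replicate 1 at -0.28.

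Within each library, STAT6 had 0.233, 0.221 and 0.257 normalized counts for each IL4R count in DMSO replicates 1, 2 and 3 and 0.327, 0.366 and 0.364 in the YK-4-279 replicates. The ratio in DMSO replicate 1 lay between those of the other DMSO libraries, and the groups did not overlap. The ratio was looked at after the values of both genes had been seen, and was not tested.

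Compared per length, as normalized counts per kilobase of the canonical transcript, the order of levels was the same in all 6 libraries. With DMSO, STAT3 had 951 ± 11.2, IL4R 782 ± 76.0 and JAK1 544 ± 67.4 normalized counts per kilobase (SD, n = 3). IL13RA1 followed with 361 ± 26.7, TYK2 with 273 ± 51.0, STAT6 with 169.5 ± 21.2 and JAK2 with 34.5 ± 4.17. With YK-4-279 the levels were 996 ± 24.7 for STAT3, 682 ± 26.5 for IL4R, 514 ± 19.1 for JAK1, 348 ± 16.1 for IL13RA1, 287 ± 15.4 for TYK2, 219 ± 7.12 for STAT6 and 28.5 ± 2.45 for JAK2. No neighbours in this order had overlapping libraries within a group. These levels assume that reads come from the canonical transcript.

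**Figure D4:**
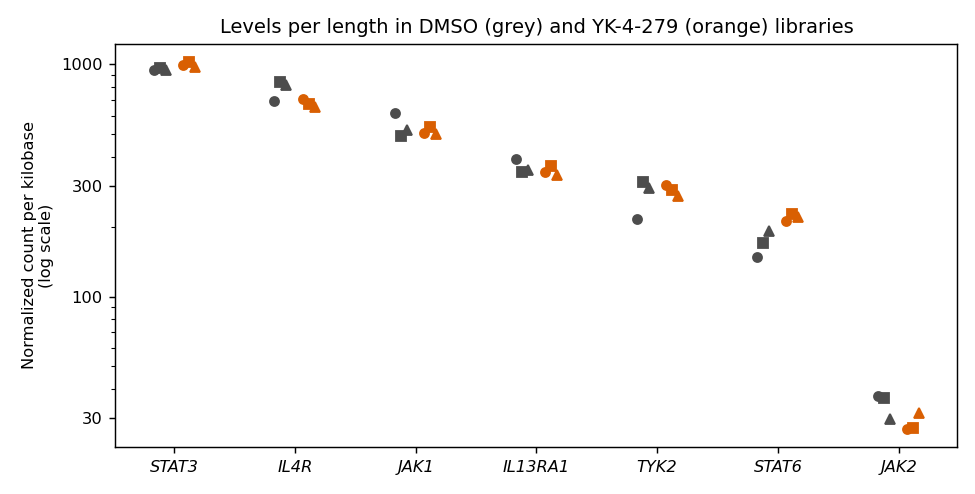
Normalized counts per kilobase of canonical transcript on a log scale for the 7 tested genes, in DMSO (grey) and YK-4-279 (orange) libraries, with circles, squares and triangles for replicates 1, 2 and 3. The order from STAT3 to JAK2 holds in all 6 libraries.

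The stretches of DNA upstream of IL4R and STAT6 are shown because these genes are the ones of the 8 called with all libraries or without DMSO replicate 1, and because the drug is described as acting on ETS factors. The 250 bases before the canonical start were read from hg38 at GENCODE starts, and the parts with no exon of a protein-coding gene are printed 5′ to 3′ on the gene's own strand. Both lie within the span of the gene, since other annotated transcripts start further upstream. Capitals mark matches, on either strand, to TTC and GAA with any 4 bases between (the spacing favored by STAT6), TTC and GAA with any 3 bases between (that of other STATs), CCGGAA or AGGAAG (forms of the ETS core). Matches were searched on both strands, and the ETS forms share the letters GGAA and can overlap. The IL4R stretch is chr16:27313818-27313922 on hg38, plus strand, and also overlaps an exon of an annotated noncoding RNA. The STAT6 stretch is chr12:57111434-57111612 on hg38, minus strand.
IL4R: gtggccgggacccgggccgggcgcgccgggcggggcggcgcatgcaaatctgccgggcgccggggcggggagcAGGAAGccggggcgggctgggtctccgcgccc
STAT6: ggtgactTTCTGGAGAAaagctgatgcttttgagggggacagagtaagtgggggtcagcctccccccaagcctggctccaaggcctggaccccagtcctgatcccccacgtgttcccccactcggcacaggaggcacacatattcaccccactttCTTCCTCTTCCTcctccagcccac
The IL4R window held 1 match, to AGGAAG, at -83 from the start. The STAT6 window held a match to the STAT6 form with 4 bases between at -243, matches to AGGAAG at -95 and -89, and a match to CCGGAA at -16, which is outside the printed stretch. Over the same windows of 20007 protein-coding genes, 4.17% held the form with 4 bases between, 5.67% that with 3 bases between, 19.4% CCGGAA and 28.0% AGGAAG. Among the other genes, STAT3 and JAK1 had CCGGAA at -50 and -98, JAK2 had AGGAAG at -23 and -12, and IL13RA1, IL13RA2 and TYK2 had none of these letters in their windows. A match describes the sequence and was not tested as a site.

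The other genes of the pathway were grouped in 10 lists, with 116 genes in all, of which 78 were tested and 16 had no reads. Among the 78, 41 had a log2 fold change above 0 and 37 below, with a median of 0.01 where the median of all tested genes was -0.01. By limma 2 were called higher and 0 lower, where 1.26% of all tested genes were called higher and 2.15% lower. At an unadjusted p under 0.05 limma gave 16 higher and 6 lower, where 7.69% of all tested genes were higher and 11.0% lower. By edgeR 3 were called and by DESeq2 6, where 3.34% and 4.47% of all tested genes were called. The groups did not overlap for 14 genes that were higher and 9 that were lower, where 10.9% and 15.1% of all tested genes did not. Without DMSO replicate 1, limma called 10 higher and 5 lower, where 4.62% of all tested genes were called higher and 8.46% lower. Without DMSO replicate 2 it called 7 higher and 2 lower, where 1.90% and 2.96% of all tested genes were called. Without YK-4-279 replicate 1, 2 or 3 it called 0, where the shares of all tested genes called in either direction were 0.136%, 0.165% and 0.330%.

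Both called genes belong to the STAT3 target list, which held 22 genes, of which 21 were tested, 13 above 0 and 8 below, with a median of 0.04. Of these, 4 were called higher and 2 lower without DMSO replicate 1, where 4.62% of all tested genes were called higher and 8.46% lower. FOS, an immediate early AP-1 factor, had 47.9, 33.0 and 46.8 normalized counts with DMSO and 97.7, 73.9 and 98.0 with YK-4-279. Every drug-treated library was above every DMSO library, and FOS rose by 1.07 on the log2 scale (standard error 0.20, limma adjusted p = 0.0122). CEBPB, a bZIP transcription factor, had 344, 401 and 341 normalized counts with DMSO and 505, 512 and 479 with the drug, and rose by 0.46 (standard error 0.09, limma adjusted p = 0.0152). Both calls were lost without YK-4-279 replicate 1, 2 or 3, with limma adjusted p-values of 0.117, 0.0640 and 0.0928 for FOS and of 0.121, 0.112 and 0.0820 for CEBPB, which was also at 0.0609 without DMSO replicate 3. The log2 fold changes stayed similar, at 1.00, 1.20 and 1.00 for FOS and at 0.45, 0.44 and 0.49 for CEBPB, or 0.42 without DMSO replicate 3. In eBayes without trend the limma adjusted p was 0.0947 for FOS and 0.101 for CEBPB. Over all alternatives the limma, edgeR and DESeq2 adjusted p-values ran from 3.79e-05 to 0.117 for FOS and from 1.23e-04 to 0.121 for CEBPB.

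The most abundant gene of the STAT3 target list was BIRC5, the apoptosis inhibitor survivin, with 6012, 6676 and 6462 normalized counts with DMSO and 5766, 6144 and 5489 with the drug. Its groups overlapped, and the log2 fold change of -0.14 had a limma adjusted p of 0.253. BIRC5 passed without DMSO replicate 1 (-0.18, limma adjusted p = 0.00170, range over the alternatives 0.00170 to 0.603), and with all 6 libraries after trends on GC content and length had been removed (-0.14, limma adjusted p = 0.0439). In this list the groups did not overlap for 6 genes that were higher and 2 that were lower, where 10.9% and 15.1% of all tested genes did not. The lower ones were the cyclin CCND1 and the transcription factor IRF1, chosen after their values were seen. CCND1 had 2821, 2952 and 2877 normalized counts with DMSO and 2587, 2617 and 2537 with the drug (-0.16, limma adjusted p = 0.142), and it passed without DMSO replicate 1 (-0.18, limma adjusted p = 0.00322, range over the alternatives 0.00322 to 0.405). With all 6 libraries CCND1 passed only after trends on GC content and length had been removed. IRF1 did not pass (-0.14, limma adjusted p = 0.471). JUNB and SOCS3, which were also chosen after their values were seen, had higher values in all drug-treated libraries. JUNB, another AP-1 factor, had 388, 606 and 649 normalized counts with DMSO and 812, 741 and 723 with the drug. SOCS3, a feedback inhibitor of gp130 receptors, had 615, 859 and 818 against 933, 976 and 955. Their log2 fold changes of 0.50 and 0.34 had limma adjusted p-values of 0.0805 and 0.102, and both passed without DMSO replicate 1, with smaller log2 fold changes of 0.27 for JUNB (limma adjusted p = 0.00269, range over the alternatives 0.00269 to 0.338) and 0.19 for SOCS3 (limma adjusted p = 0.0250, range over the alternatives 0.00742 to 0.311). Without DMSO replicate 2 they were 0.59 and 0.43 (limma adjusted p = 0.0312 and 0.0281), and without DMSO replicate 3 JUNB was 0.64 (limma adjusted p = 0.0365). With all 6 libraries both passed after trends on GC content and length had been removed (SOCS3 0.30, limma adjusted p = 0.00742). JUNB also passed in DESeq2 and SOCS3 did not (adjusted p = 0.05002), and neither passed in edgeR. SERPINA3, an acute phase gene of the list, had no reads.

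The list of STAT6 target genes held 16 genes, of which 5 had no reads (CCL11, FCER2, SERPINB3, SERPINB4 and HSD3B1) and 5 were tested, 2 above 0 and 3 below, with a median of -0.12. Its most abundant gene, CISH, a feedback inhibitor of cytokine receptors, had 328, 321 and 363 normalized counts with DMSO and 274, 328 and 274 with the drug, which overlapped (log2 fold change -0.21, limma adjusted p = 0.296). ALOX15 and GATA3 were chosen after their values were seen, as the genes of the list whose groups did not overlap. ALOX15, a lipoxygenase induced by interleukin-4, had 46.7, 52.0 and 50.9 normalized counts with DMSO and 36.8, 28.3 and 31.0 with the drug (log2 fold change -0.63, limma adjusted p = 0.114). GATA3, a factor of T helper cells, had 95.8, 103.9 and 93.5 against 144.8, 131.5 and 121.1 (0.43, limma adjusted p = 0.0953). Their fitted log2 fold changes were of opposite sign and neither gene passed the test. SOCS1, an inhibitor of JAK kinases in the same list, also chosen after its values were seen, had a log2 fold change of -0.12 (limma adjusted p = 0.646).

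Outside the STAT3 targets, 57 pathway genes were tested and limma called 0 of them, where 3.41% of all tested genes were called. At an unadjusted p under 0.05 limma gave 11 higher and 4 lower, where 7.69% and 11.0% of all tested genes were, edgeR called 1 and DESeq2 called 3, where they called 3.34% and 4.47%. Without DMSO replicate 1, limma called 6 of the 57 higher and 3 lower, where 4.62% and 8.46% of all tested genes were called. Of 10 ligands, IL13, IL6 and IL27 had no reads and IL4 had 1 read in all. The 5 tested had a median of 0.17, 4 of them above 0. IL11, a gp130 ligand and the most abundant, had 575, 718 and 699 normalized counts with DMSO and 791, 799 and 797 with the drug (log2 fold change 0.27, limma adjusted p = 0.118), and its log2 fold change was 0.17 without DMSO replicate 1 (limma adjusted p = 0.0672, range over the alternatives 0.0162 to 0.346). With all 6 libraries IL11 passed only after trends on GC content and length had been removed (0.24, limma adjusted p = 0.0162). LIF, another gp130 ligand, chosen after its values were seen, had 94.6, 122.9 and 115.2 against 163.7, 138.0 and 179.1 (0.53, limma adjusted p = 0.0654). LIF passed without DMSO replicate 1 (0.42, limma adjusted p = 0.0366) and without DMSO replicate 2 (0.61, limma adjusted p = 0.0422), with a range over the alternatives of 0.0227 to 0.275. With all 6 libraries LIF passed in DESeq2 (0.54, adjusted p = 0.0478) and after trends on GC content and length had been removed (0.50, limma adjusted p = 0.0227). It did not pass in edgeR (0.54, adjusted p = 0.0613). The groups did not overlap for either ligand.

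Of the 7 gp130 family receptors, 6 were tested, 3 above and 3 below 0, with a median of 0.05. IL6ST, gp130 itself, had 2141, 1659.8 and 1830.2 normalized counts with DMSO and 1698, 1723 and 1793 with the drug, which overlapped (log2 fold change -0.10, limma adjusted p = 0.539). Its highest library was DMSO replicate 1, without which the log2 fold change was -0.0042 (limma adjusted p = 0.971, range over the alternatives 0.172 to 0.971). The interferon and interleukin-10 family receptors had 7 of 10 tested and a median of -0.05, and IL10RA and IL22RA1 had no reads. Their most abundant gene, IFNAR1, a chain of the type I interferon receptor, had a log2 fold change of -0.06 that was 0.0085 without DMSO replicate 1. Of 16 other receptors that use JAK kinases, 4 were tested, with a median of 0.01, and CSF2RB, IL5RA, IL12RB1, IL2RA and IL15RA had no reads. GHR, the growth hormone receptor, was the most abundant and overlapped between the groups (log2 fold change -0.13, limma adjusted p = 0.408, and -0.035 without DMSO replicate 1).

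IL21R, the interleukin-21 receptor and a neighbor of IL4R on chromosome 16, was chosen after its values were seen. It had 347, 419.7 and 391 normalized counts with DMSO and 458, 497 and 537 with the drug, so that all drug-treated libraries were higher. The log2 fold change of 0.37 had a limma adjusted p of 0.0572, and of 0.00888 without DMSO replicate 1 (0.29, range over the alternatives 0.00888 to 0.260). It also passed without DMSO replicate 2 (0.43, limma adjusted p = 0.0294). With all 6 libraries IL21R passed in edgeR (0.38, adjusted p = 0.0490) and in DESeq2 (0.38, adjusted p = 0.0240). It also passed after trends on GC content and length had been removed (0.34, limma adjusted p = 0.0103), and not in eBayes without trend (limma adjusted p = 0.174). IL4R and IL21R thus had fitted changes of opposite sign. IL21R-AS1, which overlaps IL21R on the other strand, had at most 15.2 normalized counts.

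Among the other STATs, 4 of 5 were tested, 1 above and 3 below 0, with a median of -0.15. STAT5B, a growth hormone factor chosen after its values were seen, had 1228, 1265 and 1165 normalized counts with DMSO and 1112, 1071 and 1044 with the drug, which did not overlap (-0.18, limma adjusted p = 0.167, and -0.17 with limma adjusted p = 0.0270 without DMSO replicate 1, range over the alternatives 0.0250 to 0.443). With all 6 libraries STAT5B passed only after trends on GC content and length had been removed (-0.18, limma adjusted p = 0.0250).

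Of 20 negative regulators, 19 were tested, 12 above and 7 below 0, with a median of 0.02. The phosphatase PTPN11 was the most abundant and overlapped between the groups (log2 fold change -0.08, limma adjusted p = 0.503). The phosphatase PTPN6 and the ubiquitin ligase CBL were chosen after their values were seen. PTPN6, which had few reads, had 12.6, 1.9985 and 6.68 normalized counts with DMSO and 18.0, 11.95 and 29.0 with the drug, which overlapped. Its log2 fold change of 1.52 had a limma adjusted p of 0.140, and it passed without DMSO replicate 1 (2.02, limma adjusted p = 0.00194, range over the alternatives 0.00194 to 0.432). Without DMSO replicate 2 it was 0.93 (limma adjusted p = 0.232), and with a pseudocount of 10 it was 0.80 (limma adjusted p = 0.135). CBL was higher in all drug-treated libraries (0.15, limma adjusted p = 0.2298), and it passed without DMSO replicate 1 (0.17, limma adjusted p = 0.0128, range over the alternatives 0.0128 to 0.553). With all 6 libraries CBL passed only after trends on GC content and length had been removed. Of 11 receptor adaptors, 10 were tested, 2 above and 8 below 0, with a median of -0.04. GRB2, the adaptor that links receptors to RAS, was the most abundant, with a log2 fold change of -0.0027 (limma adjusted p = 0.990). Its sign was not stable across the scaling alternatives. IRS1, the docking protein that IL4R shares with the insulin receptor, and GAB1, another docking protein, were chosen after their values were seen. IRS1 had 2649, 3189.6 and 3179 normalized counts with DMSO and 3856, 3612 and 3482 with the drug (0.28, limma adjusted p = 0.0586), and GAB1 had 489, 385 and 449 against 346, 339 and 356 (-0.34, limma adjusted p = 0.0807). For both genes the groups did not overlap. Both passed without DMSO replicate 1, IRS1 at 0.20 (limma adjusted p = 0.00108, range over the alternatives 0.00108 to 0.316) and GAB1 at -0.26 (limma adjusted p = 0.0389, range over the alternatives 0.0237 to 0.289). They also passed without DMSO replicate 2, at 0.33 and -0.43 (limma adjusted p = 0.0294 and 0.0237). With all 6 libraries both passed after trends on GC content and length had been removed, at 0.27 and -0.27 (limma adjusted p = 0.00683 and 0.0308). In DESeq2 IRS1 passed (0.29, adjusted p = 0.0147) and GAB1 did not (adjusted p = 0.0760), and neither passed in edgeR (adjusted p = 0.0519 and 0.0868). IRS2 and SHC1, named after their values were seen as the other adaptors called without DMSO replicate 1, overlapped between the groups. IRS2 had a log2 fold change of 0.24 with all libraries (limma adjusted p = 0.208) and 0.26 without DMSO replicate 1 (limma adjusted p = 0.0262, range over the alternatives 0.0262 to 0.595). SHC1 had -0.03 (limma adjusted p = 0.878) and -0.16 (limma adjusted p = 0.0181, range over the alternatives 0.0181 to 0.989), and its sign was not stable across the scaling alternatives.

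**Figure D5:**
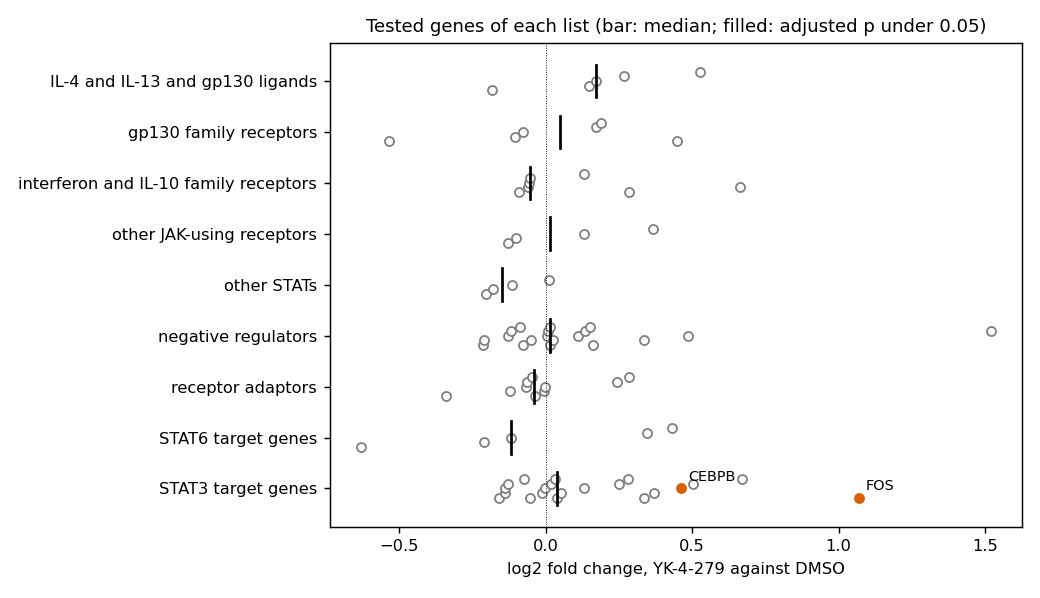
Log2 fold changes of the tested genes of 9 lists, YK-4-279 against DMSO, 1 point per gene and list, with the list's median as a bar. The filled points are FOS at 1.07 and CEBPB at 0.46, the pathway genes with a limma adjusted p under 0.05.

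The genes whose pattern over the 6 libraries was most like that of IL4R, among 10698 other genes with a mean of at least 100, were COL2A1 (Pearson's r 0.999), RGS12 (0.996), PLXNB2 (0.996), PLCG1 (0.994) and BLVRA (0.993). COL2A1 had 6499, 7697 and 7547 normalized counts with DMSO and 6608, 6309 and 6172 with YK-4-279. As for IL4R, DMSO replicates 2 and 3 were the highest libraries. Of all genes compared, 2.49% had an r of at least 0.9 with IL4R. The correlations without DMSO replicate 1 were 0.999, 0.996, 0.996, 1.000 and 0.998 in the same order over the remaining libraries. No test was made of them.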

How the data were processed

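mRNA from 6 libraries was sequenced on an Illumina platform. The authors trimmed reads with BBDuk and used STAR for alignment to hg38 and for counts per gene. The submitters' processing notes list FastQC 0.11.8, MultiQC 1.8, STAR 2.7.9a and DESeq2 1.44.0. The annotation release is not given in the sources used here. The deposited table holds a normalized signal, namely normalized counts, which are reads of a gene over a library factor. In each library 100% of values were whole multiples of its smallest value within 0.001, which gave the reads and depths. In DMSO replicate 2 and YK-4-279 replicate 3 that smallest value was 0.999 and 1.00, so there a step of this size is hard to tell from rounding at low counts. At high counts the values were not whole numbers, as for IL4R with 3039.71 normalized counts at 3042 reads in DMSO replicate 2. Of 35269 rows, 1 without a gene name was left out, with at most 6 reads per library.

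The groups were compared by a two-sided limma 3.58.1 fit (R 4.3.3, lmFit, eBayes with trend) of log2(normalized count + 1), limited to 13930 genes whose mean reached 10, with Benjamini-Hochberg adjustment over all of them and a threshold of 0.05. Fold changes on this scale are understated for genes with few reads. Alternatives were a pseudocount of 10, other filters, quantile or TMM scaling, a replicate block, eBayes without trend, omission of each library, removal of trends on transcript length and GC content, and, on recovered reads, edgeR 4.0.16 and DESeq2 1.42.0. The code was tested on simulated data. Positions, lengths and GC content are from GENCODE 44 on hg38, with GC content for 98.4% of tested genes. Named genes were the 8 genes chosen by symbol, the most abundant gene of each list, up to 3 called genes per list, genes without reads and the 5 most like IL4R, and other genes are said to be chosen after their values were seen. Some genes given by this rule are not reported here. The genes and lists were chosen with earlier results of these data known.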

Additional observations from a re-analysis of the deposited data

How the results depend on the processing

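The number of genes called by limma, 475 of 13930 (37.1% higher), was 277 with quantile normalization (132 higher, 145 lower, 47.7% higher), 33 with eBayes without trend (30 higher, 3 lower, 90.9% higher), 1565 after removing trends on length and GC content, and between 19 and 1823 when single libraries were left out, the highest being without DMSO replicate 1 and the lowest without YK-4-279 replicate 1. It was 465 with edgeR and 623 with DESeq2, which gave no adjusted p for 1081 genes.

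Of the 8 genes, 1 was called. The number was 0 with quantile normalization and with eBayes without trend, 2 (IL4R and STAT6) after removing trends on length and GC content, and 0 to 2 when single libraries were left out. Of the pathway genes, 2 were called, and 1 with a mean of at least 100, for which FOS was not tested, 0 with eBayes without trend, 6 with DESeq2, 13 after removing these trends and 0 to 15 when single libraries were left out. The IL4R log2 fold change was -0.22 after removing these trends (limma adjusted p = 0.00190, range over the alternatives 8.73e-06 to 0.446), and -0.28 to -0.14 when single libraries were left out.

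Signs turned for fitted changes near 0. IL13RA1 and IFNAR1 were 0.013 and 0.0028 after removing these trends, LRP1, CDH15 and SHC1 were 0.050, 0.022 and 0.012 with quantile normalization, MYOD1 was 0.010 with TMM, 0.011 with quantile normalization, 0.0083 with edgeR and 0.0043 with DESeq2, and GRB2 was 0.016 with TMM, 0.061 with quantile normalization, 0.011 with edgeR and 0.0074 with DESeq2. When single libraries were left out, IL13RA1 ran from -0.091 to 0.0064, JAK1 from -0.14 to 0.024, TYK2 from -0.078 to 0.19, IFNAR1 from -0.10 to 0.0085, MYOD1 from -0.060 to 0.031 (its positive values between 0.0039 and 0.031), CDH15 from -0.14 to 0.041 (its positive values between 0.023 and 0.041), SHC1 from -0.16 to 0.061 and GRB2 from -0.067 to 0.038, its positive values lying between 0.0025 and 0.038. The cause was not tested.

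With the replicate number as a block, 180 genes, 0 of the 8 genes and 2 pathway genes were called, with limma adjusted p-values of 0.0629 for STAT6 and 0.0812 for COL1A1. Deviations of same-numbered libraries from their group means correlated at -0.098, -0.027 and -0.027 across genes. Because DMSO replicate 1 stood apart and dominates these deviations, the values cannot decide whether the numbers pair the libraries.

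Groups of 3 and a library that stands apart limit these results. Genes under the floor of 3 reads cannot be compared at this depth.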
